A study of Rattus norvegicus with 9 samples.

Results

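The 10 circadian clock genes Per1, Per2, Per3, Cry1, Cry2, Clock, Npas2, Nr1d1, Nr1d2 and Dbp were followed in the rat adrenal medulla under immobilization stress. Every probe set annotated to exactly 1 of these symbols was taken, which gave 18 probe sets among 31042 that were not array controls, or 10 of 14217 named genes. RNA was hybridised to 9 Affymetrix arrays. Control rats were unstressed (3 arrays), 1XIMO rats were immobilized once for 2 h (3 arrays), and 6XIMO rats were immobilized for 2 h on each of 6 days (3 arrays). All animals were adults of 280 to 320 g, and both medullae were dissected after decapitation, which followed the last session in the stressed rats. The strain, the sex, the clock time of dissection and the interval after the last session were not given in the sources used here. The labels leave unsaid whether an array stands for 1 animal or for a pool, so the p-values measure only the spread between these samples, which may be technical.

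The circadian clock is a transcriptional feedback loop that runs in most cells, the adrenal gland included. CLOCK, or its relative NPAS2, pairs with BMAL1 and switches on genes with E-boxes, among them the Per and Cry genes, whose proteins return to the nucleus and repress that pair. The nuclear receptors REV-ERB alpha (Nr1d1) and REV-ERB beta (Nr1d2) repress Bmal1 in a linked loop, and Dbp encodes an output factor that acts at D-boxes. In peripheral tissues Per1 and Per2 are also known as genes that respond directly to hormonal and second-messenger signals.

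After a single immobilization Per1 and Per2 rose and Dbp fell, while the other 7 clock genes did not pass the test, in a comparison where 8.28% of all genes passed. After 6 daily sessions Per2 and Cry1 were higher than in Control and Npas2 was lower, beside 22.9% of all genes. Cry1 was also higher after 6 sessions than after 1, beside 9.03%. Levels are given as log2(intensity + 16), a scale that understates the change of dim probe sets, and each gene is represented by its brightest probe set unless another is named. Tests were made with limma across all named probe sets, a change was called at a Benjamini-Hochberg adjusted p under 0.05, and a fold change is followed by its standard error (SE). In whole tissue, fewer cells of a type and less RNA per cell cannot be told apart.

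**Figure D1:**
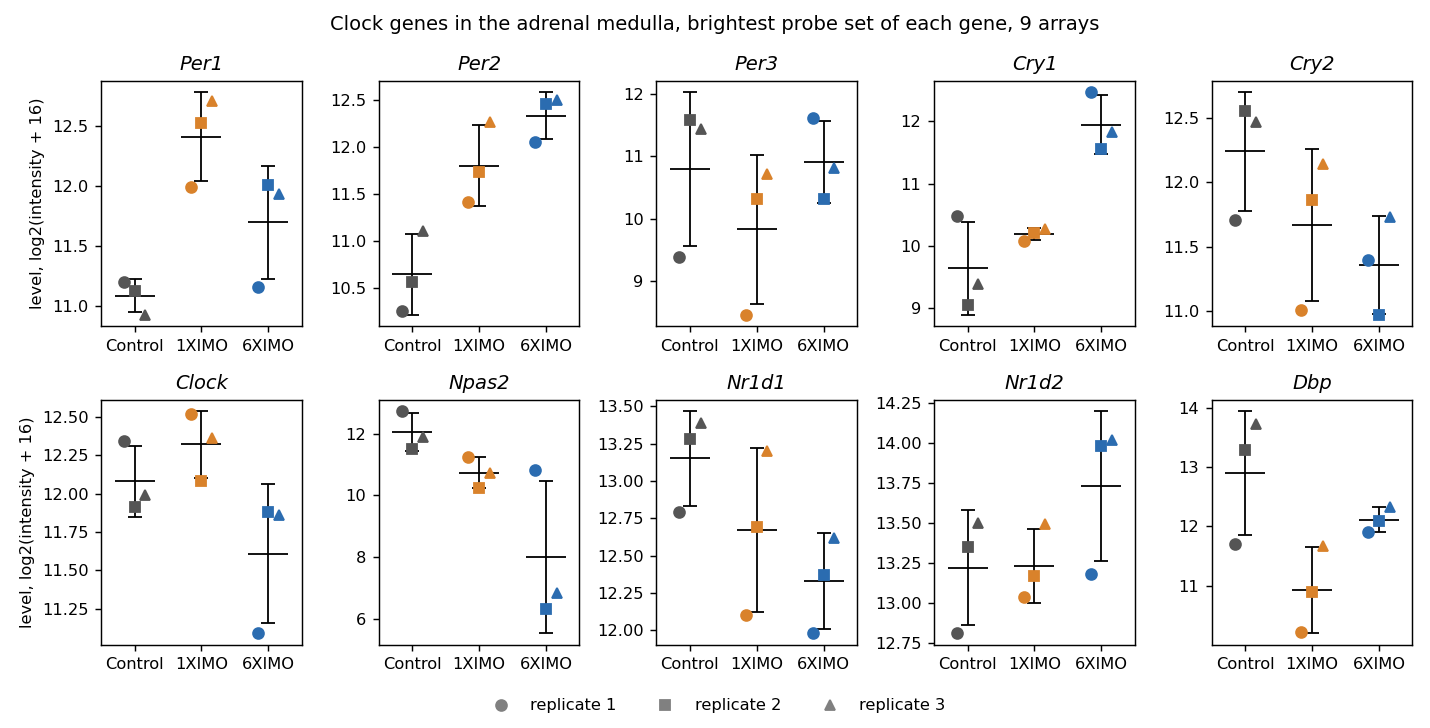
Level of the brightest probe set of each of the 10 clock genes on each of the 9 arrays, as log2(intensity + 16), by group; points are arrays and horizontal lines are group means. The Control and 1XIMO arrays are separate for Per1, Per2, Npas2 and Dbp, and the 6XIMO arrays of Cry1 lie above all others.

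The 6XIMO arrays differed from the others in RNA quality controls. The ratio of the 3' to the 5' probe set of actin was 231, 6.11 and 8.87 on 6XIMO arrays 1, 2 and 3, against 1.45 to 2.15 on Control and 1.57 to 1.99 on 1XIMO arrays. For GAPDH the ratio was 5.02, 1.79 and 1.87 on the 6XIMO arrays and at most 1.41 elsewhere. Array 1 of 6XIMO correlated with the others at 0.555 to 0.694 across probe sets, whereas the remaining arrays reached up to 0.981. The mean log2 level of spiked-in controls was 17.52, 14.04 and 14.41 on the 6XIMO arrays, against 12.04 to 13.08 on Control and 11.96 to 13.46 on 1XIMO arrays. Median intensity was 1583, 592.9 and 674.8 on the 6XIMO arrays, against 910.8 to 1053.3 and 826.6 to 974.7. Differences of 6XIMO from Control are given with and without array 1 of 6XIMO, but arrays 2 and 3 keep their own deviations. RNA quality and repeated stress cannot be told apart between groups. Markers of chromaffin cells, the catecholamine-making cells of the medulla, were detected: 9 of 10 were tested, none was at 0, and their summed intensity was 334884 to 512403 in Control, 322084 to 628747 in 1XIMO and 1075437 to 2376534 in 6XIMO. Of 12 adrenal cortex markers 10 were tested and none was at 0, with sums of 402274 to 581491, 339589 to 840486 and 1189954 to 2127746. In 6XIMO against Control, 4 chromaffin markers were called higher and 0 lower, and 6 cortex markers were called higher and 1 lower. By sign alone, 5 chromaffin markers were above 0 and 4 below, and 7 cortex markers were above 0 and 3 below. For 5 of 6 leukocyte markers the sum was 13320 to 14188 in Control, 10320 to 13249 in 1XIMO and 4986 to 8745 in 6XIMO, with 2 of them lower in 6XIMO. Their part in the clock gene results was not tested.

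The sequence upstream of 3 members is shown because Per1 and Per2 were the members that rose after 1 session and Nr1d1 was the member with the E-box CACGTG in the window. The sequences are from RefSeq on build GRCr8 and give the 250 bases before the start site, 5' to 3' on the gene's strand. They lie at chr10:54304126-54304375 on the plus strand for Per1, chr9:99496994-99497243 on the minus strand for Per2 and chr10:84229455-84229704 on the minus strand for Nr1d1. Capitals mark a D-box in Per2 and an E-box in Nr1d1.
Per1: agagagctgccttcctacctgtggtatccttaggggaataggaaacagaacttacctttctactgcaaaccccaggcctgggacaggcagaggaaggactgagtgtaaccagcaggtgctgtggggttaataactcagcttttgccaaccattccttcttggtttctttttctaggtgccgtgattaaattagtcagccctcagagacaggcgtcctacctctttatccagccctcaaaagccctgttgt
Per2: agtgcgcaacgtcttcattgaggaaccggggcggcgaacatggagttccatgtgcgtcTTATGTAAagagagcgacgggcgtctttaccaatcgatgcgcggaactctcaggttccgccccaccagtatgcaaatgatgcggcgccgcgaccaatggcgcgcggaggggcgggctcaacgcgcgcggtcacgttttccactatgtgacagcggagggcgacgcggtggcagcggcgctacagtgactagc
Nr1d1: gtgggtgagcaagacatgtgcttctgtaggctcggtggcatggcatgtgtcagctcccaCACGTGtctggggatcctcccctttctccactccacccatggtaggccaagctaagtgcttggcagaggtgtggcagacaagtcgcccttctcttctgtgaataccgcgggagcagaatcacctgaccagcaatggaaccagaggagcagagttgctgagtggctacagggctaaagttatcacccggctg
Windows of 300 bases, reaching 50 bases past the start, were searched on both strands for the E-box CACGTG, the cAMP response element TGACGTCA and its short form TGACG, the D-box TTANGTAA, and the palindromic glucocorticoid response element and its short form TGTTCT. Each short form lies within its full element. E-boxes with other letters than CACGTG were not searched. In Per2 a D-box lay from -192 to -185 and a short cAMP element from 39 to 43, counted from the start site. The E-box of Nr1d1 lay from -191 to -186, and a second annotated start of Nr1d1 had none of these motifs in its window. A short cAMP element was found from -164 to -160 in Per3 and from 39 to 43 in Nr1d2, and a short glucocorticoid element from -70 to -65 in 1 of the windows of Clock. None of the letters searched was in the windows of Per1, Cry2, Npas2 or Dbp, and 9 of the 10 members had a window. Over all 33469 windows of this length, 6.42% held the E-box, 2.24% the D-box, 1.83% the full cAMP element, 21.2% its short form, 0.0149% the full glucocorticoid element and 20.7% its short form. A match describes the letters of this window and is not a measured binding site.

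Per1, which encodes a period protein of the repressor arm, was read by probe set 1374855_at. Its levels were 11.20, 11.13 and 10.93 on the 3 Control arrays. On the 1XIMO arrays they were 11.99, 12.52 and 12.71, and on the 6XIMO arrays 11.16, 12.01 and 11.93. All 1XIMO arrays lay above all Control arrays, whereas the 6XIMO arrays overlapped Control through array 1. The mean rose from 11.09 ± 0.14 (SD, n = 3) to 12.41 ± 0.37 after 1 session, a log2 fold change of 1.32 ± 0.28 (adjusted p = 0.0223), or 2.49-fold. After 6 sessions the mean was 11.70 ± 0.47, which did not pass against Control (0.61 ± 0.28, adjusted p = 0.145). Without array 1 of 6XIMO it did pass, at 0.88 with an adjusted p of 0.00812. The difference between 6XIMO and 1XIMO was not called (-0.70 ± 0.28, 95% interval -1.33 to -0.07 without adjustment, adjusted p = 0.139), nor was it without that array (-0.43, adjusted p = 0.147).

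Per2, a second period gene, had levels of 10.26, 10.57 and 11.11 in Control, 11.42, 11.73 and 12.26 in 1XIMO, and 12.05, 12.45 and 12.50 in 6XIMO (probe set 1368303_at). No array of either stressed group fell into the range of the Control arrays, and the stressed groups overlapped each other. The rise was 1.16 ± 0.30 after 1 session (adjusted p = 0.0448, 2.23-fold) and 1.69 ± 0.30 after 6 sessions (adjusted p = 0.0047, 3.22-fold). The stressed groups were not separated by the test (0.53 ± 0.30, 95% interval -0.13 to 1.19, adjusted p = 0.272). Without array 1 of 6XIMO the difference between 6XIMO and Control was 1.83 (adjusted p = 0.000977), and that between 6XIMO and 1XIMO 0.67 (adjusted p = 0.103). A second probe set of Per2 was among the dimmest 30% and was not tested.

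Per3, a period gene regarded as dispensable for the core loop, gave 9.38, 11.58 and 11.44 in Control, 8.46, 10.31 and 10.72 in 1XIMO, and 11.62, 10.31 and 10.81 in 6XIMO. The 3 groups overlapped, and array 1 was the lowest in Control and in 1XIMO. No difference was called with all 9 arrays and no block, with -0.97 ± 0.72 after 1 session (95% interval -2.57 to 0.64, adjusted p = 0.576) and 0.11 ± 0.72 after 6 (-1.49 to 1.72, adjusted p = 0.925). The latter turned to -0.24 without 6XIMO array 1 (adjusted p = 0.811). Within same-numbered arrays of Control and 1XIMO, described further on, Per3 was lower by 0.91, 1.26 and 0.72. In the fit of those 6 arrays with the number as a block the difference of -0.97 passed (adjusted p = 0.00567). That blocked fit, also cited for other members below, was added after the data were seen and called 36.9% of all genes. The second Per3 probe set was too dim to be tested.

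Calls in the period genes after 1 session depended on single arrays. Without 1 array at a time, the adjusted p of Per1 was 0.0587, 0.0828 and 0.108 when Control array 1, 2 or 3 was left out, and 0.0992 and 0.112 without 1XIMO array 2 or 3, with fold changes of 1.17 to 1.37. For Per2 it was 0.146, 0.157 and 0.0598 without Control array 1, 2 or 3, 0.0565, 0.134 and 0.191 without 1XIMO array 1, 2 or 3, and 0.062 and 0.0658 without 6XIMO array 2 or 3. Without 6XIMO array 1 the adjusted p was 0.00104 for Per1 and 0.00957 for Per2. The rise of Per2 after 6 sessions was called whichever array was left out. Centring each array on its median left the fold changes at 1.45 for Per1 (adjusted p = 0.328) and 1.29 for Per2 (adjusted p = 0.38) after 1 session, and 1.86 for Per2 after 6 sessions (adjusted p = 0.0693). The call of Per2 after 1 session was also lost with no filter on dim probe sets, with unnamed probe sets included and with no mean-variance trend.

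Cry1 and Cry2 encode the cryptochromes, the partners of the period proteins in repression. Cry1 (1392640_at) had levels of 10.48, 9.05 and 9.38 in Control, 10.08, 10.20 and 10.27 in 1XIMO, and 12.47, 11.56 and 11.83 in 6XIMO. The 3 arrays of 6XIMO lay above the other 6, and the 1XIMO values fell inside the Control range. Cry1 was 4.98-fold higher in 6XIMO than in Control (2.32 ± 0.39, adjusted p = 0.00413) and 3.40-fold higher than in 1XIMO (1.77 ± 0.39, adjusted p = 0.0266). After 1 session the difference was 0.55 ± 0.39 (95% interval -0.33 to 1.43, adjusted p = 0.553). Without 6XIMO array 1 the differences were 2.06 against Control (adjusted p = 0.00194) and 1.51 against 1XIMO (adjusted p = 0.015). The first was called without any single array. The second was lost without Control array 3 (adjusted p = 0.0503), without 1XIMO array 1, 2 or 3 (0.0854, 0.0922 and 0.0943) or without 6XIMO array 3 (0.057), and under median centring (1.81, adjusted p = 0.0526).

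The 2 probe sets of Cry2 both had lower means in 6XIMO, and 1 of them passed. The brighter, 1372548_at, gave 11.71, 12.55 and 12.47 in Control, 11.01, 11.86 and 12.14 in 1XIMO and 11.40, 10.97 and 11.73 in 6XIMO, and its 6XIMO difference of -0.88 ± 0.35 was not called (adjusted p = 0.101), nor was it without 6XIMO array 1 (-0.90, adjusted p = 0.0744). The dimmer, 1369446_at, gave 10.49, 9.77 and 10.94 in Control, 10.20, 9.17 and 9.28 in 1XIMO, and 9.08, 8.69 and 8.29 in 6XIMO. Its 6XIMO arrays were all below the Control arrays, and the level fell by 1.71 ± 0.45 (adjusted p = 0.0239), or by 1.91 without 6XIMO array 1 (adjusted p = 0.00546). That call was lost without Control array 1 (adjusted p = 0.0799), Control array 3 (0.113) or 6XIMO array 3 (0.0642) and under median centring (-1.54, adjusted p = 0.0632), and also under quantile normalization or with the 2 groups alone. After 1 session neither passed, at -0.58 ± 0.35 (adjusted p = 0.452) and -0.85 ± 0.45 (adjusted p = 0.357). In the blocked fit of Control and 1XIMO alone both passed (adjusted p = 0.00985 and 0.045).

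**Figure D2:**
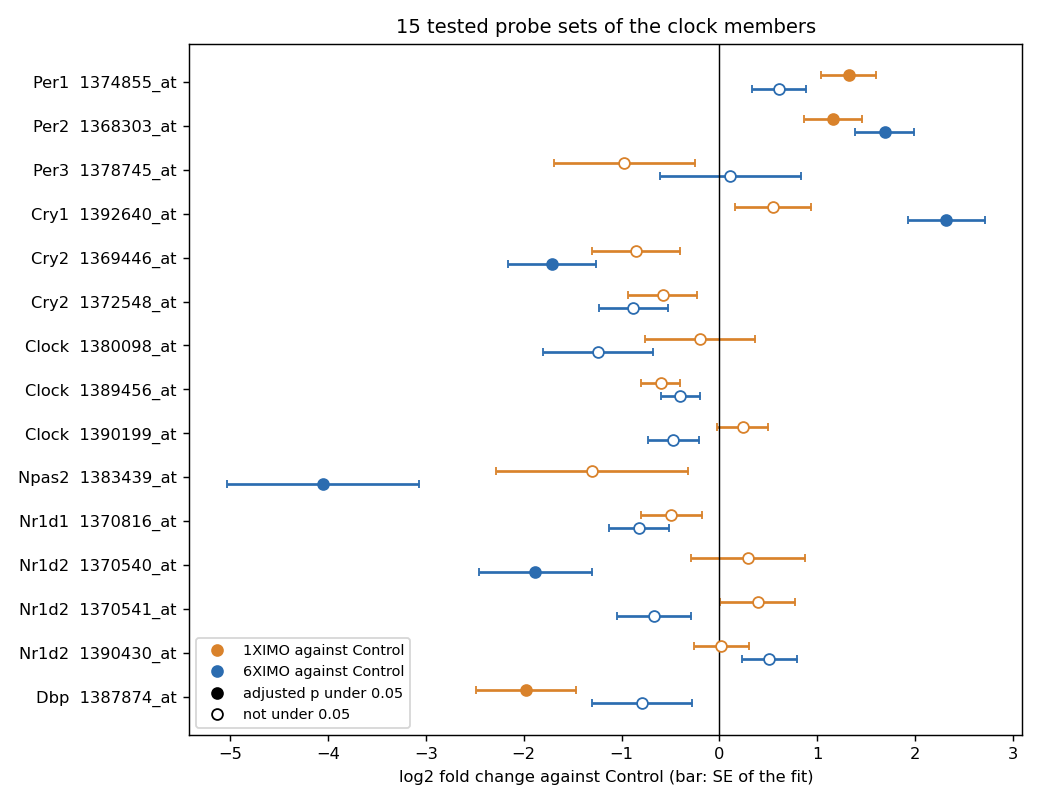
Log2 fold change against Control of the 15 tested probe sets of the clock genes after 1 session and after 6 sessions; bars are the SE of the fit, and filled points have an adjusted p under 0.05. Per1 and Per2 lie to the right and Dbp to the left after 1 session, while Cry1 at 2.32 and Npas2 at -4.05 are the outermost after 6 sessions.

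Of the activators, Npas2 fell after 6 sessions and Clock did not pass in any comparison with all 9 arrays unless arrays were weighted. Npas2, the relative of CLOCK, was read by 1383439_at at 12.74, 11.51 and 11.90 in Control, 11.24, 10.25 and 10.74 in 1XIMO, and 10.82, 6.34 and 6.83 in 6XIMO. Every array of either stressed group was below every Control array, and arrays 2 and 3 of 6XIMO were far below array 1, the array with the deviant quality controls. On 6XIMO arrays 2 and 3 the intensities were 65.2 and 97.7, as dim as the untested Per2 probe set (79.4 to 125 in Control). The size of the Npas2 fold change after 6 sessions therefore rests on values near the floor. The fold change was -4.05 ± 0.98 in 6XIMO against Control (adjusted p = 0.0179, 16.6-fold lower) and -5.46 without 6XIMO array 1 (adjusted p = 2.4e-05). It was not called without Control array 1 (adjusted p = 0.0692), Control array 3 (0.0589) or 6XIMO array 3 (0.0529), nor with the 2 groups alone. After 1 session the difference was -1.30 ± 0.98 (adjusted p = 0.587) with all arrays, and it passed without 6XIMO array 1 (adjusted p = 0.0245) and in the blocked fit of Control and 1XIMO alone (0.000256). Between the stressed groups it was -2.75 ± 0.98 (adjusted p = 0.106), and -4.16 without 6XIMO array 1 (adjusted p = 0.000694).

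Clock, the partner of BMAL1, had 3 tested probe sets and 1 more that was too dim. The brightest, 1390199_at, gave 12.34, 11.91 and 11.99 in Control, 12.52, 12.08 and 12.36 in 1XIMO, and 11.09, 11.88 and 11.86 in 6XIMO. Its group means were within 0.71 of each other, and no difference was called (0.24 ± 0.26 after 1 session, adjusted p = 0.761). After 6 sessions it was -0.47 ± 0.26 (adjusted p = 0.221), and -0.21 without 6XIMO array 1 (adjusted p = 0.376). The probe sets did not share a direction after 1 session: 1389456_at was at -0.60 ± 0.20 (adjusted p = 0.119) and 1380098_at at -0.20 ± 0.56 (adjusted p = 0.954). For 1389456_at the 1XIMO arrays, at 10.97, 10.83 and 10.85, all lay below the Control arrays at 11.57, 11.30 and 11.59. That difference passed without 6XIMO array 1 (adjusted p = 0.0182) and in the blocked fit of Control and 1XIMO alone (0.0131). With array weights 1390199_at passed in 6XIMO against 1XIMO (adjusted p = 0.0402), and 1389456_at passed there (0.0267) and after 1 session. After 6 sessions 1389456_at was at -0.40 ± 0.20 (adjusted p = 0.186) and 1380098_at at -1.24 ± 0.56 (adjusted p = 0.139), or -0.32 and -0.80 without 6XIMO array 1 (adjusted p = 0.147 and 0.212).

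The REV-ERB receptors gave no call in their brightest probe sets. Nr1d1 (1370816_at) was at 12.79, 13.28 and 13.39 in Control, 12.10, 12.69 and 13.20 in 1XIMO, and 11.98, 12.37 and 12.62 in 6XIMO. The 6XIMO arrays were below all Control arrays, the 1XIMO arrays overlapped both groups, and the difference of -0.82 ± 0.31 after 6 sessions missed the threshold (adjusted p = 0.0804), as did -0.65 without 6XIMO array 1 (adjusted p = 0.0944). After 1 session it was -0.49 ± 0.31 (adjusted p = 0.472), which passed in the blocked fit of Control and 1XIMO alone (0.0176). Nr1d2 (1390430_at) was at 12.81, 13.35 and 13.50 in Control, 13.04, 13.17 and 13.49 in 1XIMO, and 13.18, 13.98 and 14.02 in 6XIMO. Its difference was 0.02 ± 0.28 after 1 session (95% interval -0.62 to 0.65, adjusted p = 0.999) and 0.51 ± 0.28 after 6 (adjusted p = 0.221), and the latter passed without 6XIMO array 1 at 0.78 (adjusted p = 0.0136).

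The 3 probe sets of Nr1d2 disagreed in direction after 6 sessions. The dimmest, 1370540_at, gave 9.76, 9.06 and 9.75 in Control, 10.66, 9.40 and 9.39 in 1XIMO, and 6.88, 8.57 and 7.48 in 6XIMO. Here the 6XIMO arrays were the lowest of all, and the level fell by 1.88 ± 0.58 against Control (adjusted p = 0.0426) and differed by -2.17 ± 0.58 from 1XIMO (adjusted p = 0.0453). The third, 1370541_at, was at -0.67 ± 0.38 against Control (adjusted p = 0.236). Without 6XIMO array 1 the values against Control were -1.50 for 1370540_at (adjusted p = 0.0319) and -0.14 for 1370541_at (adjusted p = 0.49), and the value of 1370540_at against 1XIMO was -1.79 (adjusted p = 0.0233). The call of 1370540_at against Control was lost without Control array 1, 2 or 3 (adjusted p = 0.129, 0.076 and 0.142), 1XIMO array 2 or 3 (0.0696 and 0.0686) or 6XIMO array 3 (0.0858), and with the replicate number as a block. Against 1XIMO it was lost without any single array other than 6XIMO array 1 or 2 (adjusted p = 0.0727 to 0.158), and under median centring the value against Control was -1.71 (adjusted p = 0.181). Probe positions within the transcripts were not used here, so how far each probe set lies from the 3' end was not compared.

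**Figure D3:**
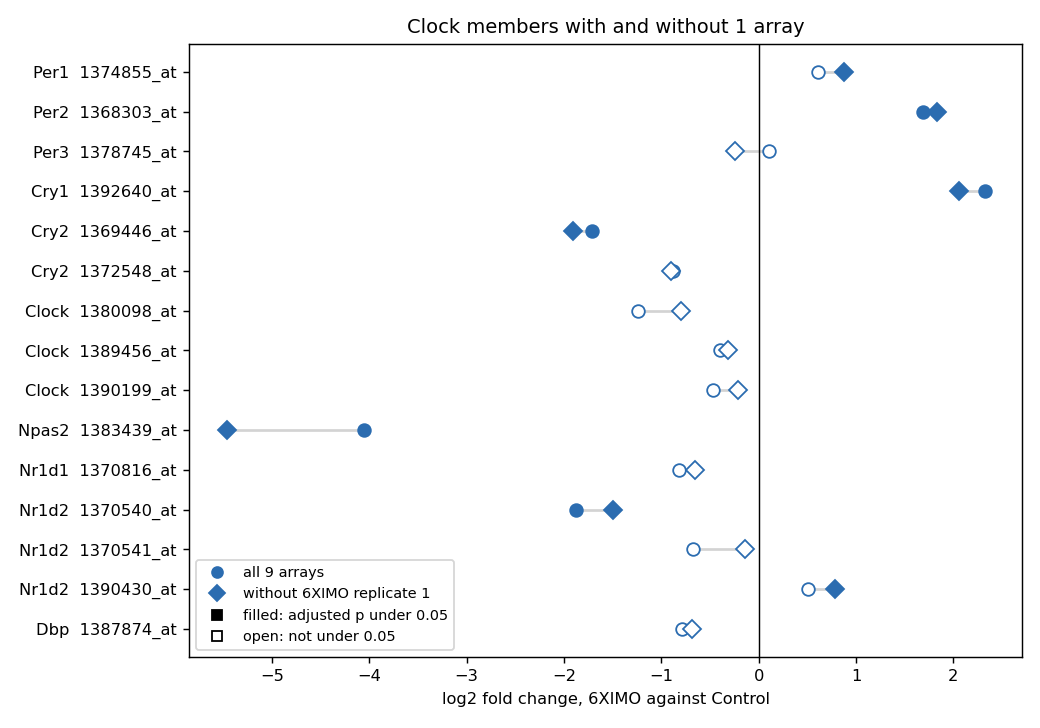
Log2 fold change in 6XIMO against Control of the tested clock probe sets with all 9 arrays (circles) and without 6XIMO array 1 (diamonds); filled symbols have an adjusted p under 0.05. Npas2 moves from -4.05 to -5.46 and Per1 from 0.61 to 0.88, and Per1 and the brightest Nr1d2 probe set pass only without the array.

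Dbp, the PAR bZIP output factor, was the member that fell after 1 session. Its levels were 11.71, 13.28 and 13.72 in Control, 10.22, 10.89 and 11.67 in 1XIMO, and 11.91, 12.09 and 12.33 in 6XIMO (1387874_at). The highest 1XIMO array was just below the lowest Control array, and the 6XIMO arrays lay inside the Control range. Dbp fell by 1.98 ± 0.51 after 1 session (adjusted p = 0.0451, 3.94-fold). After 6 sessions the difference from Control was -0.79 ± 0.51 (95% interval -1.92 to 0.34, adjusted p = 0.288), and -0.69 without 6XIMO array 1 (adjusted p = 0.324). The difference between the stressed groups, 1.19 ± 0.51, was not called with that array (adjusted p = 0.161) or without it (1.28, adjusted p = 0.102). The fall after 1 session was not called without Control array 2 or 3 (-1.79 and -1.57, adjusted p = 0.176 and 0.195), 1XIMO array 1, 2 or 3 (-1.62, -1.96 and -2.35, adjusted p = 0.16, 0.141 and 0.0626), or 6XIMO array 2 or 3 (0.0619 and 0.0653). It passed without 6XIMO array 1 (adjusted p = 0.0161), and under median centring the value was -1.85 (adjusted p = 0.3). Quantile normalization and the fit with no mean-variance trend also left Dbp without a call.

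Counted as genes, 3 of the 10 members passed in 1XIMO against Control (2 higher, 1 lower), where 8.28% of all 11287 genes tested passed, 3.8% higher and 4.47% lower. The groups of 3 arrays did not overlap for 4 members (Per1, Per2, Npas2 and Dbp), beside 42.9% of all genes. In 6XIMO against Control 3 members passed (2 higher, 1 lower), where 22.9% of all genes passed, 9.03% higher and 13.9% lower, and 5 did not overlap beside 41.5%, so both shares of members were near the background. In 6XIMO against 1XIMO 1 member passed beside 9.03% of all genes (4.73% higher, 4.3% lower), and 3 did not overlap beside 33.8%. Without 6XIMO array 1 the counts were 5 members in 6XIMO against Control, beside 46.4% of all genes, and 3 in 6XIMO against 1XIMO, beside 30%. The median log2 fold change of the members was -0.24, -0.18 and 0.10 in the 3 comparisons, and that of all genes -0.13, -0.23 and -0.08. By probe set, 3 of the 15 tested passed after 1 session (2 higher, 1 lower), beside 7.29% of 15716 (3.65% higher, 3.64% lower). After 6 sessions 5 passed (2 higher, 3 lower), beside 22.5% (8.16% higher, 14.3% lower), and between the stressed groups 2 passed (1 higher, 1 lower), beside 9.33% (4.13% higher, 5.2% lower). The comparisons of 1XIMO and 6XIMO with Control share the Control arrays, and with 3 arrays against 3 an exact permutation test of a single gene cannot give a p below 0.1. Under median centring, which moved the median of all genes from -0.13 to 0 after 1 session and from -0.23 to -0.06 after 6, 0 members passed after 1 session (1.71% of genes) and 2 after 6 (Cry1 and Npas2, beside 5.86% of genes).

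Control and 1XIMO arrays that carry the same replicate number varied together, so their differences within a number were also taken. Per1 was higher by 0.79, 1.39 and 1.78 in 1XIMO for numbers 1, 2 and 3. For Per2 these differences were 1.15, 1.16 and 1.15, and for Dbp -1.49, -2.39 and -2.05. The differences of Per2 were nearly equal although its levels differed between array numbers within both groups. Npas2 was lower by 1.49, 1.26 and 1.16, Per3 by 0.91, 1.26 and 0.72, Cry2 by 0.71, 0.70 and 0.33, and Nr1d1 by 0.68, 0.59 and 0.19. By the brightest probe sets, 5 of 10 members were lower in 1XIMO within every number, beside 42% of all genes. Another 3 were higher within every number (Per1, Per2 and Clock, the last by 0.18, 0.17 and 0.37), beside 20.7%, and Cry1 and Nr1d2 changed sign between numbers. Other probe sets of these genes differed: 1389456_at of Clock was lower by 0.60, 0.46 and 0.74, and 1370541_at of Nr1d2 was higher by 0.66, 0.30 and 0.22. In a fit of these 6 arrays alone with the number as a block, an alternative added after the data were seen, 7 of the 10 members passed beside 36.9% of all genes, and 10 of their 15 probe sets beside 34.9% of all probe sets. The members were Per1 (adjusted p = 0.000906), Per2 (0.000437), Dbp (7.45e-05), Npas2 (0.000256), Per3 (0.00567), Cry2 (0.00985) and Nr1d1 (0.0176). The other probe sets were 1389456_at of Clock (0.0131), 1370541_at of Nr1d2 (0.0338, higher) and 1369446_at of Cry2 (0.045). With all 9 arrays and the same block Per1, Per2 and Dbp passed, as without it, beside 7.26% of all genes.

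**Figure D4:**
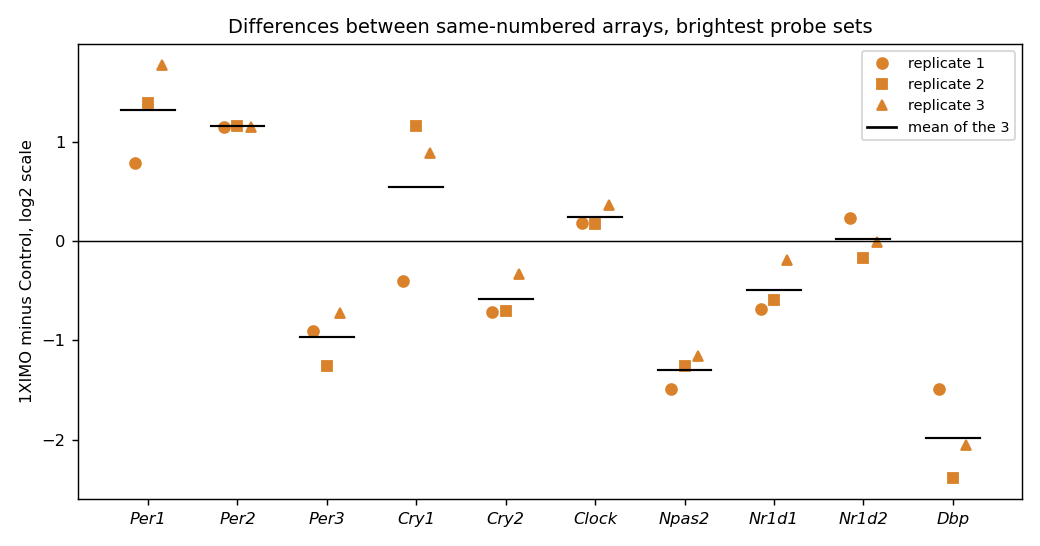
Differences between 1XIMO and Control arrays of the same replicate number for the brightest probe set of each clock gene, on the log2 scale; symbols are the 3 numbers and the line is their mean. The 3 differences of Per2 coincide near 1.15, those of Dbp, Npas2, Per3, Cry2 and Nr1d1 are all below 0, and those of Cry1 and Nr1d2 lie on both sides of it.

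The level of several members followed the array number in all 3 groups, a pattern seen in the data and described without a test. By the brightest probe sets, array 1 was the lowest of its group in Control, 1XIMO and 6XIMO for Per2, Nr1d1, Nr1d2 and Dbp, that is 4 of 10 members or 40%, beside 13.7% of all genes. The Nr1d2 probe set 1370540_at was instead highest on array 1 in Control and 1XIMO, at 9.76 and 10.66. Npas2 was highest on array 1 in all 3 groups (1 of 10, beside 10.5% of all genes). Outside the members, Bmal1, which encodes the partner of CLOCK, was also highest on array 1 in each group, at 11.51, 10.74 and 10.79 in Control, 11.91, 10.63 and 10.44 in 1XIMO, and 11.32, 9.90 and 10.30 in 6XIMO. Rora, an activator of Bmal1 transcription, likewise was highest on array 1 in each group. Bmal1 and Rora were named after their values were seen. Bhlhe40 and Gsk3b, also outside the members, were instead lowest on array 1 in each group. By brightest probe sets, no other tested clock gene outside the members kept array 1 at the same end in all 3 groups. Array 1 also had the highest median intensity of its group, at 1053.3, 974.7 and 1583 in Control, 1XIMO and 6XIMO. The other arrays of these groups were at 910.8 to 955, 826.6 to 864.1 and 592.9 to 674.8. Mean log2 levels of spiked-in controls were likewise highest on array 1, at 13.08, 13.46 and 17.52. On the other arrays they were 12.04 to 12.31, 11.96 to 12.38 and 14.04 to 14.41. Whether these differences bear on the pattern was not tested. The sources used here do not give what the arrays of 1 number share.

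Among 21 other clock genes listed by role, 16 had a tested probe set, Bmal1 among them. After 1 session 3 of the 16 were higher and 0 lower, after 6 sessions 4 were higher and 1 lower, and between the stressed groups 0 were higher and 2 lower. Of all genes 8.28%, 22.9% and 9.03% passed in these comparisons, so the 5 of 16 after 6 sessions stand beside 22.9%. The groups did not overlap for 11, 7 and 5 of them, beside 42.9%, 41.5% and 33.8% of all genes. The median log2 fold change of the 16 was 0.51, 0.30 and -0.18. These counts are by the brightest probe sets. Rorb passed in 6XIMO against Control only in its dimmer probe set (2.54 ± 0.51, adjusted p = 0.00831). Array 1 of 6XIMO was the highest there (11.88, 9.78 and 10.73). The brightest probe set of Rorb was at 1.69 ± 0.74 (adjusted p = 0.127).

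Nfil3 encodes E4BP4, which binds the same D-boxes as DBP and represses there. Its levels were 11.52, 10.82 and 11.28 in Control, 15.87, 15.54 and 15.34 in 1XIMO, and 15.20, 15.37 and 15.37 in 6XIMO. Nfil3 rose by 4.37 ± 0.24 after 1 session (adjusted p = 1.55e-05) and by 4.10 ± 0.24 after 6 (adjusted p = 1.89e-05), and passed without any single array, at 4.16 after 6 sessions without 6XIMO array 1. The difference between the stressed groups was not called (-0.27 ± 0.24, adjusted p = 0.485). Tef, a PAR bZIP relative of Dbp, was at -1.19 after 1 session and did not pass (adjusted p = 0.121). Bhlhe40, which encodes the repressor DEC1 of E-box genes, rose by 2.11 ± 0.54 after 1 session (adjusted p = 0.0436). Its levels were 10.02, 10.84 and 12.21 in Control and 12.59, 13.41 and 13.41 in 1XIMO, and the call was lost without Control array 1 or 2 (adjusted p = 0.132 and 0.158), any 1XIMO array (0.0731, 0.158 and 0.167) or 6XIMO array 2 or 3 (0.0541 and 0.0595), under quantile normalization (0.0958), under median centring (0.242) and with no mean-variance trend.

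Nampt, the clock-controlled enzyme of NAD salvage, was higher after 1 session (1.92 ± 0.38, adjusted p = 0.0167) and after 6 (1.36 ± 0.38, adjusted p = 0.0301). Its first call was lost without Control array 2 or 3 or any 1XIMO array (adjusted p = 0.0799, 0.0749, 0.0674, 0.0612 and 0.0555) and under median centring (0.206). The second was lost without Control array 2 or 3, 1XIMO array 2 or 6XIMO array 2 or 3 (0.11, 0.0914, 0.0507, 0.0771 and 0.0867), under median centring (0.199), with the replicate block (0.0556) and with the 2 groups alone (0.0777). That rise was 1.82 without 6XIMO array 1 (adjusted p = 0.00042). After 6 sessions 2 enzymes that act on clock proteins were also higher: Usp2, a deubiquitinase, by 2.42 ± 0.38 (adjusted p = 0.00309) and Gsk3b, a kinase, by 1.35 ± 0.26 (adjusted p = 0.00656). The values without 6XIMO array 1 were 2.60 for Usp2 (adjusted p = 0.00069) and 1.43 for Gsk3b (adjusted p = 0.00148). Both passed without any single array, but Gsk3b did not pass under median centring (1.52, adjusted p = 0.0803) or with the block over the 2 groups alone (0.0668). Wee1, a cell-cycle kinase gene controlled through E-boxes, was at 11.43, 11.45 and 11.16 in Control, 11.57, 11.90 and 11.87 in 1XIMO, and 8.23, 10.39 and 10.19 in 6XIMO. In this brightest probe set Wee1 fell by 1.75 ± 0.49 against Control (adjusted p = 0.0311). It differed by -2.18 ± 0.49 from 1XIMO (adjusted p = 0.028), with array 1 of 6XIMO the lowest. Without that array the differences were -1.06 (adjusted p = 0.00161) and -1.49 (adjusted p = 0.00115). Neither passed under quantile normalization (adjusted p = 0.159 and 0.114), median centring (0.249 and 0.197) or with the 2 groups alone (0.0916 and 0.103). The first call was lost without any Control array (adjusted p = 0.0914, 0.0942 and 0.0799) or 1XIMO array 2 or 3 (0.0531 and 0.0537), and the second without Control array 2 or 3 or any 1XIMO array (0.0521, 0.0551, 0.0769, 0.0998 and 0.107). Csnk1e, a kinase of period proteins, was lower in 6XIMO than in 1XIMO (-1.29 ± 0.28, adjusted p = 0.0237), a call lost without any 1XIMO array (0.0588, 0.0946 and 0.11) or 6XIMO array 2 or 3 (0.052 and 0.0602), under median centring (0.0812) and with the 2 groups alone (0.0896). Without 6XIMO array 1 it was -1.50 (adjusted p = 0.00186), and Csnk1e was then also lower than in Control (-0.90, adjusted p = 0.00867). The dimmer probe sets of Wee1, Usp2, Nampt and Csnk1e gave no call. That of Wee1 was at 0.07 against Control (adjusted p = 0.887) and -0.44 against 1XIMO (adjusted p = 0.364). In 6XIMO against Control that of Usp2 was at 1.46 (adjusted p = 0.125) and that of Nampt at 1.84 (adjusted p = 0.0977). Those of Csnk1e were at -0.51 and -1.59 against 1XIMO (adjusted p = 0.502 and 0.37).

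**Figure D5:**
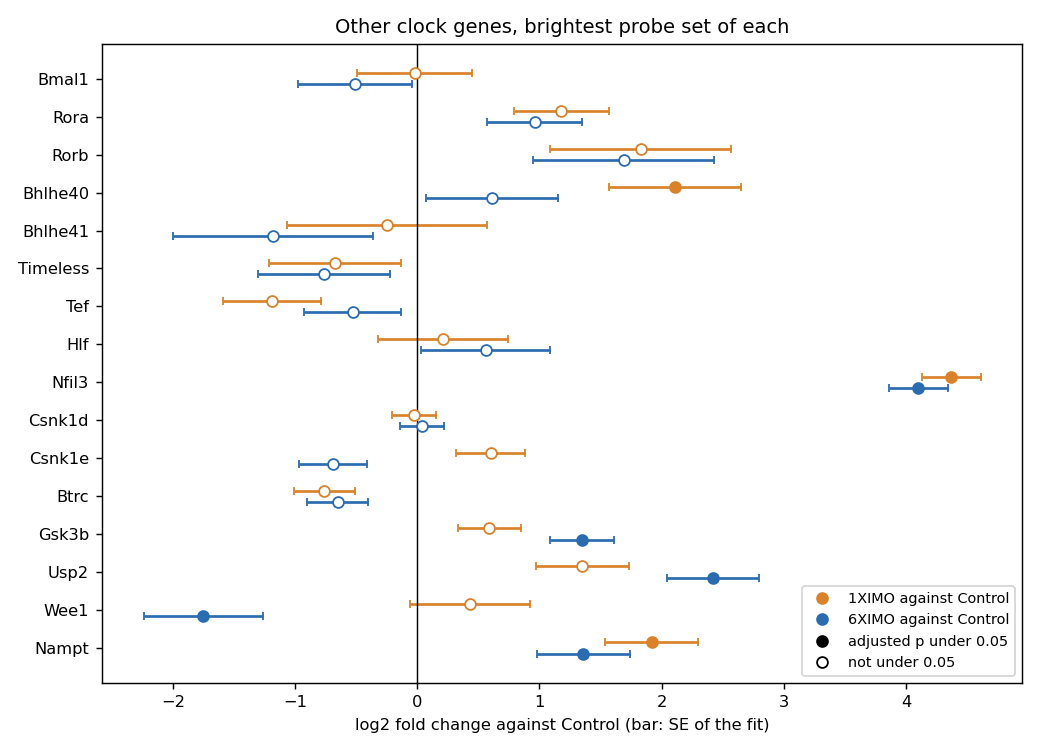
Log2 fold change against Control of the 16 other clock genes after 1 session and after 6 sessions; bars are the SE of the fit and filled points have an adjusted p under 0.05. Nfil3 stands at 4.37 and 4.10, and Wee1 at -1.75 is the called gene below 0.

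For the 3 members called after 1 session, the genes with the most similar pattern over the 9 arrays are given by Pearson's r as a description, since the arrays share groups and array-wide differences. The nearest to Per1 were Ncaph (r = 0.976), Zdbf2 (0.973) and Nab2 (0.971), whose log2 fold changes after 1 session were 1.36, 1.83 and 1.60. The nearest to Per2 were Eif4enif1 (r = 0.974), N4bp2l2 (0.97) and Net1 (0.97), at 0.29, 0.50 and 1.28. For Dbp they were Snx17 (r = 0.981), Klhdc8a (0.962) and Ltn1 (0.961), at -0.61, -1.34 and -0.58.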

How the data were processed

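The deposited table holds 1 linear intensity per probe set and array. The trimmed mean of each array was 2500.6 to 2501, so arrays had been scaled before deposit, while medians ran from 592.9 to 1583. No source used here gives the summarisation method, background step or genome build. Labelling and arrays were run by the manufacturer, per the labels. GEO's organism field, Rattus norvegicus, was followed where other label text names mouse or brain. Of 31099 probe sets 57 are controls, and of the rest 20826 had 1 gene symbol in the platform annotation, 436 several and 9780 none.

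On the log2(value + 16) scale, the 30% of probe sets with the lowest mean were dropped, and 15716 named probe sets (11287 genes) were fitted with limma 3.58.1 in R 4.3.3 (lmFit, eBayes with trend) over all 9 arrays with no covariate, adjusted by Benjamini-Hochberg over all of them. All tests were two-sided. The script was tested on simulated data. The text names all members, the listed other clock genes that passed or bear on a result, and the 3 genes most correlated with each member called after 1 session. The members and lists were chosen with earlier results of these data known. Bmal1 was named beyond this rule after its values were seen, as were Rora and Tef. The alternatives comprised 24 other settings. Precision is limited by having 3 arrays a group.

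Pairing was checked by correlating, across probe sets, the deviations of same-numbered arrays from their group means. For 1XIMO and Control the correlations were 0.577, 0.427 and 0.235, so numbers were taken to pair these arrays, on the data alone, since the labels share only the number. Probe sets are not independent replicates.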

Additional observations from a re-analysis of the deposited data

Results flagged for a closer look

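Groups of 3 arrays were too small to test for outlying arrays. In 2 probe sets the response to 6 sessions differed from the response to 1 session by the test of the difference itself. For Cry1 the difference was 1.77 (adjusted p = 0.0266), with 6XIMO higher on 3 of 3 arrays than on any 1XIMO array. For the Nr1d2 probe set 1370540_at it was -2.17 (adjusted p = 0.0453), with 6XIMO lower on 3 of 3 arrays, while the brightest probe set of Nr1d2 was at 0.49 (adjusted p = 0.286).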

How the results depend on the processing

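No called change of a member reversed its direction in any of the 24 settings. The rise of Cry1 after 6 sessions was called in 24 of 24 and that of Per2 in 23, whereas after 1 session Per1 passed in 18, Per2 in 12 and Dbp in 13. The share of all genes called in the same setting follows each count in brackets. In 1XIMO against Control, where 3 members passed (8.28%), 0 passed under median centring (1.71%), 5 with array weights (40.4%), 1 with no mean-variance trend (6.83%) and 7 with the replicate block either without 6XIMO array 1 (37%) or over the 2 groups alone (36.9%). Leaving out 1 array gave 0 to 4 (2.77% to 27.4%). In 6XIMO against Control, also 3 (22.9%), array weights gave 8 (59.3%), and the block without 6XIMO array 1 gave 9 (53.7%). Leaving out 1 array there gave 2 to 5 (10.3% to 46.4%). In 6XIMO against 1XIMO, where 1 passed (9.03%), 0 passed under median centring (0.726%) and over the 2 groups alone, with or without the block (0% in both). There 7 passed with array weights (51.9%), 2 with quantile normalization without 6XIMO array 1 (19.5%) and 7 with the block without that array (38.3%). Leaving out 1 array gave 0 to 3 in that comparison (0% to 30%). The estimate of the array weights stopped before its convergence tolerance. Per3 reversed in 6XIMO against Control, from 0.11 to -0.94 (adjusted p = 0.00736) with the block without 6XIMO array 1. A further 15 differences, below the threshold in both fits, changed sign. The cause was not tested for any of these.

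With the replicate number as a block over all 9 arrays, 3, 4 and 1 members passed in the 3 comparisons, beside 7.26%, 23.2% and 7.89% of all genes. Nr1d1 was added in 6XIMO against Control, and the Nr1d2 probe set 1370540_at was lost in both comparisons of 6XIMO. Same-numbered arrays of 6XIMO correlated more weakly in their deviations, at 0.136, 0.0424 and 0.154 with Control and 0.149, 0.0755 and 0.0977 with 1XIMO. Over the 3 groups, 7 of 9 arrays had their best match in another group with their own number. Over all probe sets, 1145, 3532 and 1466 passed in the 3 comparisons, against 269, 977 and 150 under median centring, 3560, 1801 and 0 with the 2 groups alone, 3846, 7150 and 4723 without 6XIMO array 1, and 6052, 9273 and 8137 with array weights. Quantile normalization gave 2380 in 6XIMO against Control and 641 in 6XIMO against 1XIMO. The settings with the block and fewer arrays, and quantile normalization without 6XIMO array 1, were chosen after seeing the data.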
